A study of Mus musculus with 4 samples.

Results

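The genes described here carry 2 signalling systems of blood and lymph vessels: the ligands Vegfa, Vegfc, Angpt1 and Angpt2 and the receptors Kdr, Flt1, Flt4, Nrp1, Tek and Tie1. They were taken as a named list, and all 10 were found by symbol among the 27932 genes of the deposited count tables. Drop-seq, which tags the 3′ ends of transcripts of single cells in droplets, was applied to kidneys of mouse embryos at day E14.5. Of the 4 libraries, 2 were labelled as lacking Hoxd9, Hoxd10, Hoxd11, Hoxa9, Hoxa10 and Hoxa11 (-/-), genes that pattern the posterior body, and 2 as wildtype. All were labelled as kidney, on a mixed background of mostly CD-1 and 129 stock, with no sort, transgene or treatment named in the labels. Whether separate animals gave the libraries is not in the labels, so the p-values here reflect the spread among 4 libraries and that spread may be technical.

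As background, VEGF-A is the main growth factor of blood vessels. It binds KDR (VEGFR2), the receptor that drives endothelial growth, and FLT1 (VEGFR1), which binds it tightly and also limits it; neuropilin-1 (NRP1) is a co-receptor. VEGF-C acts mainly through FLT4 (VEGFR3) on lymphatic and growing blood vessels. Angiopoietin-1 activates the endothelial receptor TEK (TIE2) and stabilises vessels, angiopoietin-2 mostly opposes it, and TIE1 is a related receptor that modulates TEK. In the developing glomerulus, podocytes are known as a source of VEGF-A for the capillaries beside them.

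The mutant libraries, mutant 1 and mutant 2, held 1061 and 6428 barcodes with 3572346 and 21350698 counts, and the wildtype libraries, wildtype 1 and wildtype 2, 2113 and 5542 barcodes with 9817486 and 24834658 counts. After filtering, 810 and 4329 mutant cells and 1852 and 4788 wildtype cells were kept, and their median depth lay between 2393.5 and 3595 counts (UMIs). More than 10% mitochondrial counts, often seen in damaged cells, occurred in 19.6% and 29.1% of mutant barcodes and in 7.76% and 9.06% of wildtype barcodes; these barcodes were left out, and the part of this difference in the results was not tested. Of the kept barcodes, 2 occurred in more than 1 library. The 6 targeted genes lay between 29.6 and 197 CPM in the mutant libraries and between 19.95 and 175 CPM in the wildtype libraries. Hoxd9 (49.7 and 47.5 CPM in the mutant and 27.1 and 39.5 CPM in the wildtype libraries), Hoxd10 (62.9 and 84.8 CPM in the mutant and 40.3 and 40.8 CPM in the wildtype libraries), Hoxd11 (113 and 197 CPM in the mutant and 76.7 and 53.7 CPM in the wildtype libraries) and Hoxa9 were higher in both mutant libraries, Hoxa10 was lower in both, and Hoxa11 overlapped. The labels do not give the altered part of each gene, and tags that fall outside it say nothing about the labels, so these levels do not check them.

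Each kept cell was assigned to a lineage gate by the number of detected genes of 12 lists of 10 markers, none of them a gene described here, and 9550 of 11779 cells received a gate. The gating genes of the endothelium (Cdh5, Pecam1, Esam and others) and of the podocytes (Nphs1, Synpo and others) were present in their gates, which describes the choice of cells and is no test. Levels are given as CPM, the UMIs of a gene scaled to the total UMIs of the same cells, summed per library. Transcript tags at the 3′ end cannot separate the isoforms of Vegfa or the soluble form of Flt1, and levels are compared within a gene, not between genes. Of the 12 gates, 6 held at least 25 cells in every library and were tested. In these summed libraries, fewer cells of a type and less RNA per cell cannot be told apart when all kept cells are pooled.

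Kdr, Flt1, Flt4, Tek and Tie1, the receptor tyrosine kinases of both systems, were highest in the endothelium gate. Kdr stood at 315 and 728 CPM in the endothelium of the mutant libraries and at 547 and 356 CPM in that of the wildtype libraries. In every other tested gate it stayed at or below 41.8 CPM, the value in the 25 podocytes of mutant 1, which rested on 4 UMIs. The endothelium gate held 87.0% and 95.7% of the gated Kdr UMIs in the mutant libraries and 95.8% and 91.7% in the wildtype libraries. All 4 libraries placed this receptor mainly in 1 lineage.

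Flt1 stood at 240 and 413 CPM in mutant endothelium and at 328 and 225 CPM in wildtype endothelium. Tie1 was even across the libraries, at 103 and 157 CPM in mutant endothelium and 148 and 132 CPM in wildtype endothelium. Tek varied more, at 70.5 and 199 CPM in mutant endothelium against 223 and 120 CPM in wildtype endothelium. The endothelium gate held 51.7% of the gated Tek UMIs of mutant 1, on 29 UMIs, and 80.1% to 89.2% in the other libraries. For each of these receptors the range of the mutant libraries overlapped that of the wildtype libraries. The receptor of VEGF-C, Flt4, stood at 70.5 and 114 CPM in mutant and at 77.0 and 47.5 CPM in wildtype endothelium, again with overlap.

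The test of the endothelium gate over all other gates of the same library (a quasi-likelihood fit in edgeR, library as block, p adjusted over 12651 genes after Benjamini and Hochberg) called 9 of the 10 genes, where 40.1% of all genes were called, 17.8% higher and 22.3% lower. The 7 that were higher were Tie1, Kdr, Flt1, Tek, Flt4, Vegfc and Nrp1. Kdr was higher by 7.39 on the log2 scale (SE 0.15, adjusted p = 1.54e-18), Tie1 by 7.40 (SE 0.23, adjusted p = 1.96e-25) and Flt1 by 7.26 (SE 0.18, adjusted p = 7.39e-17) in edgeR's test. Tek followed at 5.67 (SE 0.36) and Flt4 at 5.58 (SE 0.31). The 2 lower genes were the ligands Vegfa, at -2.92 (SE 0.28), and Angpt1, at -3.64 (SE 0.41), while Angpt2 did not pass (-0.28, SE 0.46, adjusted p = 0.673). The median of the 10 genes was 3.66, against -0.06 over all genes tested.

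**Figure D1:**
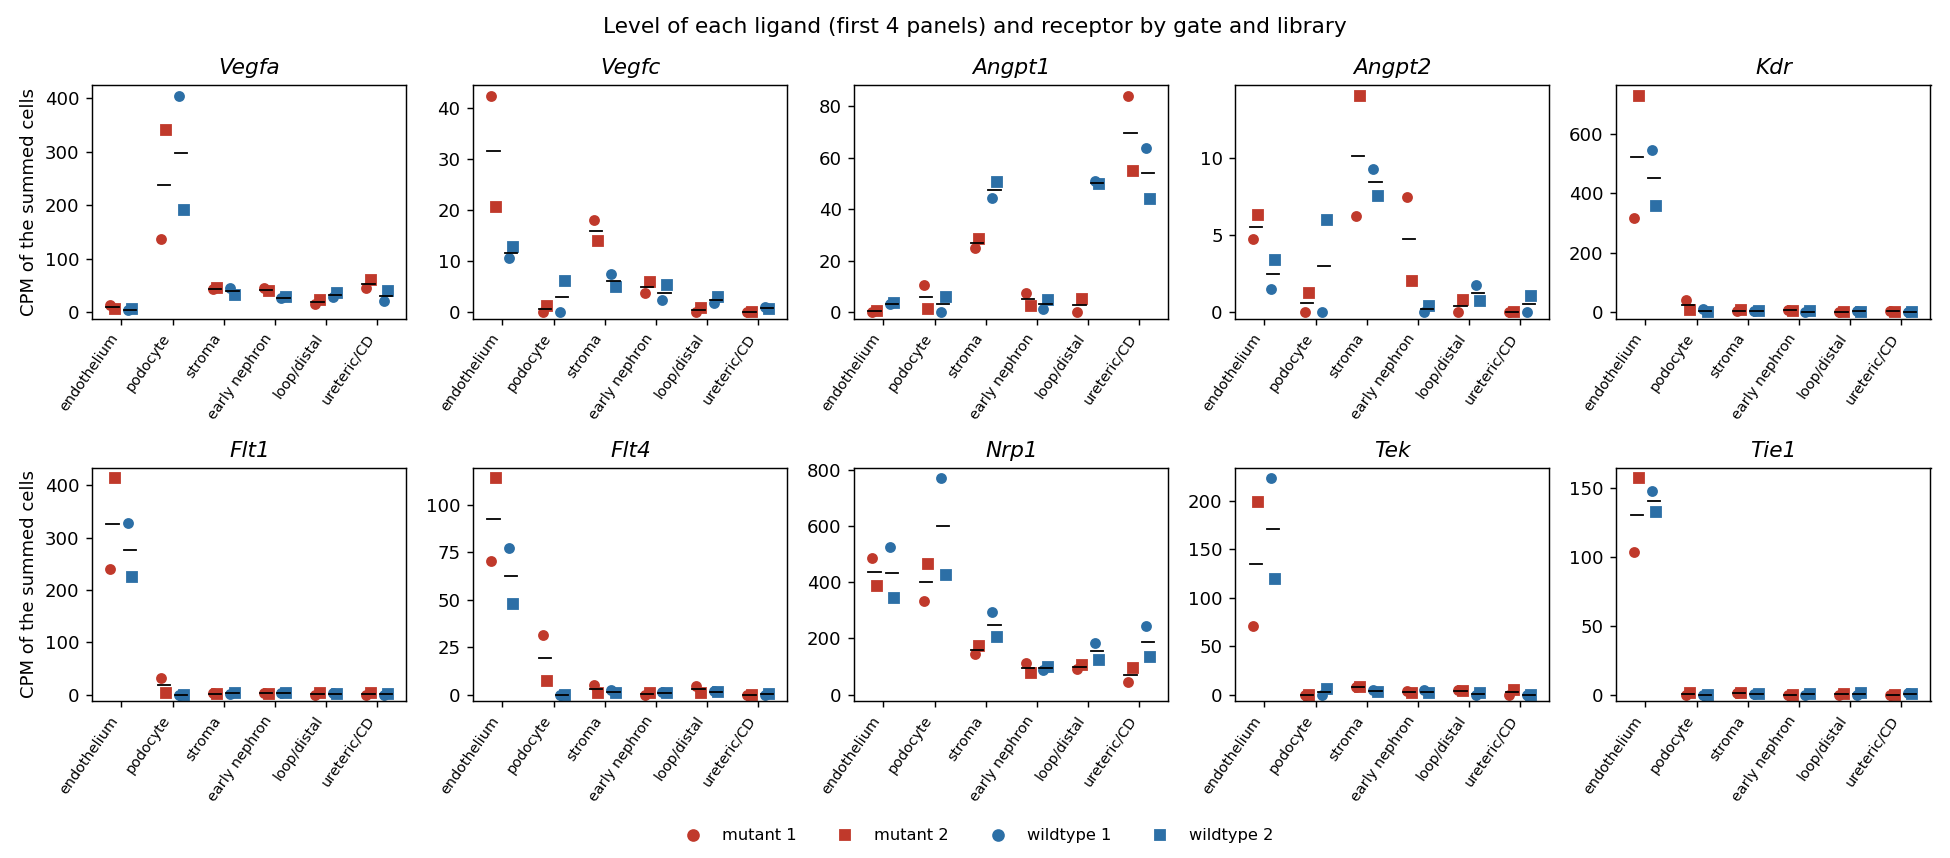
Level of each of the 10 genes (y axis, CPM of the summed cells; each panel has its own linear scale) in the 6 tested gates (x axis), with mutant libraries in red to the left of wildtype libraries in blue; circles and squares are libraries 1 and 2 and black bars are means. Kdr, Flt1, Flt4, Tek and Tie1 stand apart in the endothelium gate, Vegfa stands highest in the podocyte gate, and Angpt1 is carried by stroma, ureteric bud and collecting duct, and wildtype loop and distal tubule.

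The promoters of 4 receptors that share this endothelial pattern are shown because the genes move together across gates. Flt4 shares the pattern too, and its promoter, not printed here, held 1 match to the core marked below. Each is the RefSeq entry on GRCm38.p6, from 250 bases before to 50 bases after the gene's start, 5′ to 3′ on the gene's strand. Capitals mark GGAAG, a core bound by ETS factors, a family that includes the endothelial regulators Erg and Fli1, and its reverse complement CTTCC.
Kdr (chr5:75978406-75978705, minus strand): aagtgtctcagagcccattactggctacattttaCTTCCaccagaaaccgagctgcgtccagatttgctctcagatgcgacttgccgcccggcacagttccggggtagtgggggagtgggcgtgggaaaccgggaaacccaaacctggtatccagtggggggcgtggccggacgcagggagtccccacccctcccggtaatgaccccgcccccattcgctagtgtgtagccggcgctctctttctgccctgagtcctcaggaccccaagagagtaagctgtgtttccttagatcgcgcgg
Flt1 (chr5:147725962-147726261, minus strand): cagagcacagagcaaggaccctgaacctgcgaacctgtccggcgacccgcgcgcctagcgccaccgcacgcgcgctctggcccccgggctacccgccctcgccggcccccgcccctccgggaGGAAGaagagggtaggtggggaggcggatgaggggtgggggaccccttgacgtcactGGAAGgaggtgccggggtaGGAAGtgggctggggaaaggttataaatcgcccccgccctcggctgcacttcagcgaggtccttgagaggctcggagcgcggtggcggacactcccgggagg
Tie1 (chr4:118489800-118490099, minus strand): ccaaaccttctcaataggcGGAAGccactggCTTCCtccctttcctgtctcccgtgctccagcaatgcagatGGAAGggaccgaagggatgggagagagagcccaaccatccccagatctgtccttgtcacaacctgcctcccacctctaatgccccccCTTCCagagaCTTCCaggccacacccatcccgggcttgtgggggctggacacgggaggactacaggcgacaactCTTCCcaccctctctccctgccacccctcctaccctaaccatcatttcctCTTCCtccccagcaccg
Tek (chr4:94739039-94739338, plus strand): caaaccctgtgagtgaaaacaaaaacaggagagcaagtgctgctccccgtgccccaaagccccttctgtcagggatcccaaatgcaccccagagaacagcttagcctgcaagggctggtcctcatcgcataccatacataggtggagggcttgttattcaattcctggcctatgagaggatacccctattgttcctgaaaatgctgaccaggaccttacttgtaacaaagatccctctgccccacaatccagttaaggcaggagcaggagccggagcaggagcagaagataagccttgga
The Tie1 window held 7 matches, the Flt1 window 3 and the Kdr window 1, and these letters are not in the Tek window. On both strands, 71.4% of 32851 mouse promoters of the same length held at least 1 match, so a match sets no gene apart. In all, 9 entries matched 8 of the 10 genes (Vegfa has 2), and 7 of the 9 held the core.

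The share of cells with a receptor UMI depends on depth, so each cell was also thinned to 1000 UMIs, with shallower cells left out. After thinning, Kdr was detected in 26.1% of 46 and 52.5% of 387 endothelial cells of the mutant libraries, and in 41.7% of 127 and 26.5% of 238 of the wildtype libraries; unthinned, the shares were 46.2% and 83.9% in the mutant and 72.1% and 58.2% in the wildtype libraries. Thinning left out 6 and 30 mutant and 9 and 35 wildtype cells. In the immune gate, which should lack the gene, the thinned shares were 0 of 23 and 0 of 53 cells in the mutant libraries, which allows up to 13.0% and 5.66%, and 3.45% of 29 and 0 of 58 cells in the wildtype libraries, the last allowing up to 5.17%. Median depths were 2818 and 4037 UMIs in mutant and 3496.5 and 3022 in wildtype endothelium, beside 1971 to 2353.5 UMIs in the immune gate. At least 2 of the 6 receptors were seen together in 32.6% and 45.7% of thinned endothelial cells of the mutant libraries and in 49.6% and 24.8% of those of the wildtype libraries. For Kdr and for the joint detection alike, the 2 libraries of a genotype stood apart and the genotypes overlapped.

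Lymphatic endothelium, defined by at least 2 of 6 genes such as Prox1 and Lyve1, was represented by 3 and 31 mutant cells and 2 and 2 wildtype cells, too few for a test. Flt4, the defining VEGF receptor of lymphatic vessels, stood there at 189 and 229 CPM in the mutant libraries (6 and 67 UMIs) and at 88.4 and 55.01 CPM in the wildtype libraries (4 UMIs each). In the remaining blood endothelium it stood at 49.8 and 96.4 CPM in the mutant and at 76.2 and 47.0 CPM in the wildtype libraries. Flt4 was higher in the lymphatic than in the blood cells of each of the 4 libraries, on few UMIs in 3 of them. The lymphatic cells were also deeper, with medians of 6861 and 6654 UMIs in the mutant and 22616.5 and 36356.5 UMIs in the wildtype libraries, against 2691 and 3942.5 UMIs in mutant and 3433 and 2976 UMIs in wildtype blood endothelium. Detection of 2 marker genes depends on depth, and its part in the choice of these cells was not tested. Nrp2, the co-receptor of VEGF-C, gave 566 and 845 CPM in mutant lymphatic cells and 177 and 124 CPM in wildtype lymphatic cells, and 82.9 and 192 CPM in mutant and 84.3 and 44.3 CPM in wildtype blood endothelium.

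Nrp1 had a wider pattern than the receptor kinases. It stood at 484 and 387 CPM in mutant and 524 and 343 CPM in wildtype endothelium, and at 334 and 464 CPM in mutant and 771 and 425 CPM in wildtype podocytes. In stroma it gave 144 and 172 CPM in the mutant libraries and 293 and 205 CPM in the wildtype libraries, and it was present in the immune gate as well, at 172 to 530 CPM. Both endothelium (1.45, SE 0.08, adjusted p = 6.86e-17) and podocytes (1.21, SE 0.16, adjusted p = 7.00e-13) were above the other gates in edgeR's test. The stroma gate was not (0.13, SE 0.18, adjusted p = 0.617), although it held the largest share of Nrp1 UMIs of any gate in each library, 46.1% and 42.9% in the mutant and 33.5% and 35.1% in the wildtype libraries. The mural gate, with 5 and 29 mutant and 9 and 22 wildtype cells, gave 560 and 499 CPM in the mutant and 959 and 645 CPM in the wildtype libraries and was not tested.

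Vegfa was highest in the podocyte gate. It stood at 136 and 340 CPM in mutant podocytes (13 and 276 UMIs) and at 405 and 192 CPM in wildtype podocytes (42 and 32 UMIs), so that the genotypes overlapped. The mean over the 4 libraries, 268 ± 126 CPM (SD, n = 4), was followed by ureteric bud and collecting duct at 41.2 ± 16.3, stroma at 41.0 ± 5.81, early nephron at 34.7 ± 9.06 and loop and distal tubule at 24.9 ± 9.06 CPM. Only the gaps below the podocytes and above the endothelium, which was lowest at 7.16 ± 4.63 CPM, were free of overlap between neighbours. The podocyte gate was above the others by 2.86 (log2; SE 0.21, adjusted p = 3.43e-40 in edgeR's test), in a comparison that called 25.1% of all genes and 8 of the 10, Vegfa and Nrp1 higher (9% of all genes) and 6 lower (16.1%). Of thinned podocytes, 8.70% and 26.7% in the mutant and 29.7% and 15.9% in the wildtype libraries had a Vegfa UMI (unthinned, 32.0% and 53.5% in the mutant and 20 of 40 cells and 53.3% in the wildtype libraries). In the immune gate the thinned share was 0 in all 4 libraries, which allows between 5.17% and 13.0%.

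Podocytes held a smaller part of the Vegfa UMIs than the stroma in every library. They held 11.9% and 34.9% of the gated Vegfa UMIs in the mutant libraries and 14.2% and 5.69% in the wildtype libraries. The stroma held 56.0% and 43.2% in the mutant and 34.1% and 29.9% in the wildtype libraries, a difference without overlap. The nephron progenitor gate held 3.67% and 0.633% in the mutant against 27.4% and 26.9% in the wildtype libraries. These shares moved with the cells themselves: progenitors made up 0.690% ± 0.103 of kept mutant cells and 17.5% ± 0.286 of kept wildtype cells (SD, n = 2 each), a log2 difference of -4.60 (SE 0.21, adjusted p = 0.000961 in edgeR's test of cell numbers). Stroma made up 50.8% ± 0.990 of mutant and 31.4% ± 1.75 of wildtype cells (0.69, SE 0.15, adjusted p = 0.0600).

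The shares of podocytes and of endothelial cells bear on both ends of the VEGF-A signal. Podocytes made up 3.09% and 5.96% of the mutant cells and 2.16% and 0.940% of the wildtype cells, without overlap, and the difference did not pass edgeR's test (1.63, SE 0.61, adjusted p = 0.208). Endothelial cells made up 6.42% and 9.63% of the mutant and 7.34% and 5.70% of the wildtype cells, with overlap (0.32, SE 0.30, adjusted p = 0.438). With 2 libraries a genotype, an exact two-sided permutation test cannot go below p = 0.333.

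**Figure D2:**
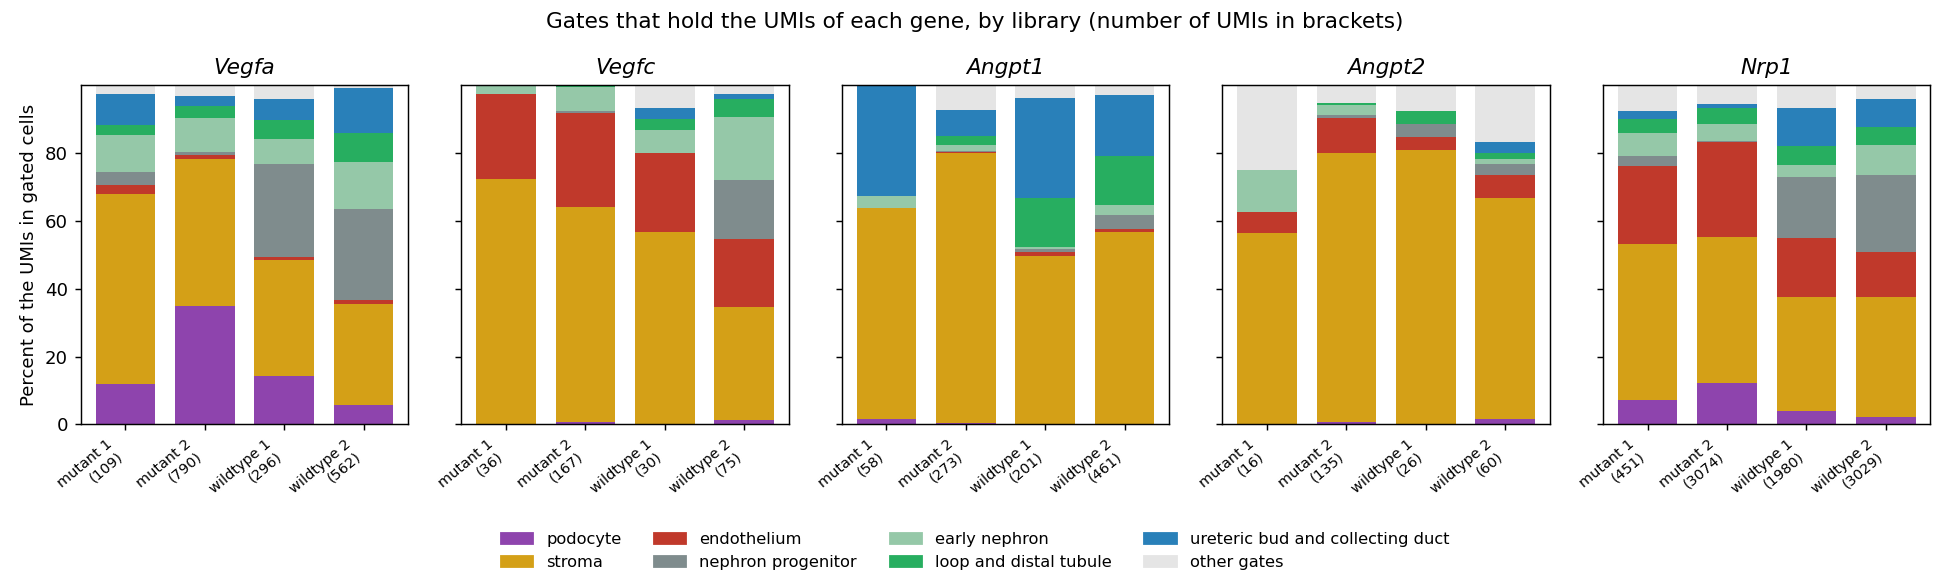
Percent of the UMIs of 5 genes (y axis) that came from each gate, by library (x axis, mutant libraries first, with the number of UMIs in gated cells in brackets). The stroma holds the largest share of Angpt1 and Angpt2 UMIs in each library, and the progenitor part of Vegfa and Nrp1 is seen mainly in the wildtype libraries.

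Vegfc was higher in endothelium and in stroma than over the other gates together. It stood at 42.3 and 20.6 CPM in mutant endothelium (9 and 46 UMIs) and at 10.6 and 12.7 CPM in wildtype endothelium (7 and 15 UMIs), and at 18.0 and 13.9 CPM in mutant and 7.51 and 4.83 CPM in wildtype stroma. Endothelium was higher by 1.73 (SE 0.31, adjusted p = 2.00e-05) and stroma by 1.03 (SE 0.25, adjusted p = 0.00730) in edgeR's test. In wildtype 2 the early nephron gate, at 5.23 CPM, held 18.7% and the nephron progenitor gate 17.3% of the gated Vegfc UMIs, beside 33.3% in stroma. No UMI was found in the immune gate. In the mutant libraries endothelium and stroma lay above the wildtype ones without overlap; the tests of those differences follow below with the other genes.

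Angpt1 was carried mainly by 3 of the tested gates. Ureteric bud and collecting duct gave 84.1 and 54.8 CPM in the mutant and 63.7 and 44.1 CPM in the wildtype libraries. Stroma gave 24.98 and 28.4 CPM in the mutant and 44.2 and 50.4 CPM in the wildtype libraries. Loop and distal tubule gave 0 and 5.25 CPM in the mutant libraries and 51.0 and 49.6 CPM in the wildtype libraries. The ureteric gate was above the others by 1.48 (SE 0.21, adjusted p = 1.00e-05) in a comparison that called 26.9% of genes (12.1% higher, 14.8% lower), and the stroma by 1.64 (SE 0.19, adjusted p = 7.94e-05) in one that called 37.9% (18.6% higher, 19.3% lower), both by edgeR's test. Of the 10 genes, the ureteric comparison called 1 higher and 7 lower, and the stromal one 3 higher and 5 lower. The early nephron gate had 8 of the 10 lower and none higher, where 31.7% of 12593 genes were called, 2160 of them lower. The loop and distal tubule gate also had 8 of the 10 lower and none higher, where 28.6% of 12014 genes were called, 1861 of them lower. Without mutant 2, the loop and distal tubule gate had 5 of 8 fitted genes lower and 1 higher. In endothelium, which bears its receptor Tek, Angpt1 was nearly absent, with 0 and 1 UMIs in the mutant and 2 and 4 in the wildtype libraries.

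Angpt2 was the least counted of the ligands, with 18 and 142 UMIs in all mutant cells and 32 and 69 in all wildtype cells. Stroma gave 6.25 and 13.995 CPM in the mutant and 9.28 and 7.53 CPM in the wildtype libraries, above the other gates by 2.16 (SE 0.36, adjusted p = 0.000690 in edgeR's test). Endothelium, often described as its source in adult vessels, gave 4.70 and 6.27 CPM in the mutant and 1.51 and 3.39 CPM in the wildtype libraries. The few mural cells gave 132 and 24.9 CPM in the mutant and 0 and 107 CPM in the wildtype libraries, on at most 7 UMIs a library.

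The stroma was divided further by 4 genes each into a matrix subgate (Postn, Ogn, Lum, Dcn), a medullary one (Penk, Alx1, Lef1, Wnt5a) and a cortical one (Foxd1, Ntn1, Crabp1, Fibin). Angpt1 was highest in the matrix cells in every library, at 31.1 and 34.9 CPM in the mutant and 77.4 and 112 CPM in the wildtype libraries. Medullary cells gave 16.1 and 27.9 CPM in the mutant and 36.0 and 63.8 CPM in the wildtype libraries, and cortical cells 7.44 and 9.35 CPM in the mutant and 22.1 and 18.1 CPM in the wildtype libraries. In all 3 subgates both mutant libraries lay below both wildtype libraries, and the values of mutant 1 rest on 1 UMI each in cortical and medullary cells.

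Angpt2 was also highest in matrix cells, at 7.77 and 18.4 CPM in the mutant and 21.1 and 29.5 CPM in the wildtype libraries, with at most 11.7 CPM in the cortical and medullary cells of any library. Vegfc gave 25.5 and 19.6 CPM in mutant and 15.8 and 14.8 CPM in wildtype matrix cells. Matrix cells made up 30.1% and 27.3% of the kept mutant cells and 10.0% and 5.66% of the kept wildtype cells. The makeup of the stroma thus moved with genotype. Matrix cells, highest in Angpt1, were more frequent in the mutant libraries, while Angpt1 was lower there over the stroma. It was also lower within matrix, medullary and cortical cells alike. Stromal Vegfc was higher in the mutant libraries, also within matrix cells. The part of the makeup in the Vegfc and Angpt1 levels was not tested. Vegfa was highest in medullary cells of 3 libraries, at 74.0 CPM in mutant 2 and 82.9 and 49.95 CPM in the wildtype libraries; in the 14 medullary cells of mutant 1 no UMI was seen, which allows up to 48.4 CPM at 3 counts.

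**Figure D3:**
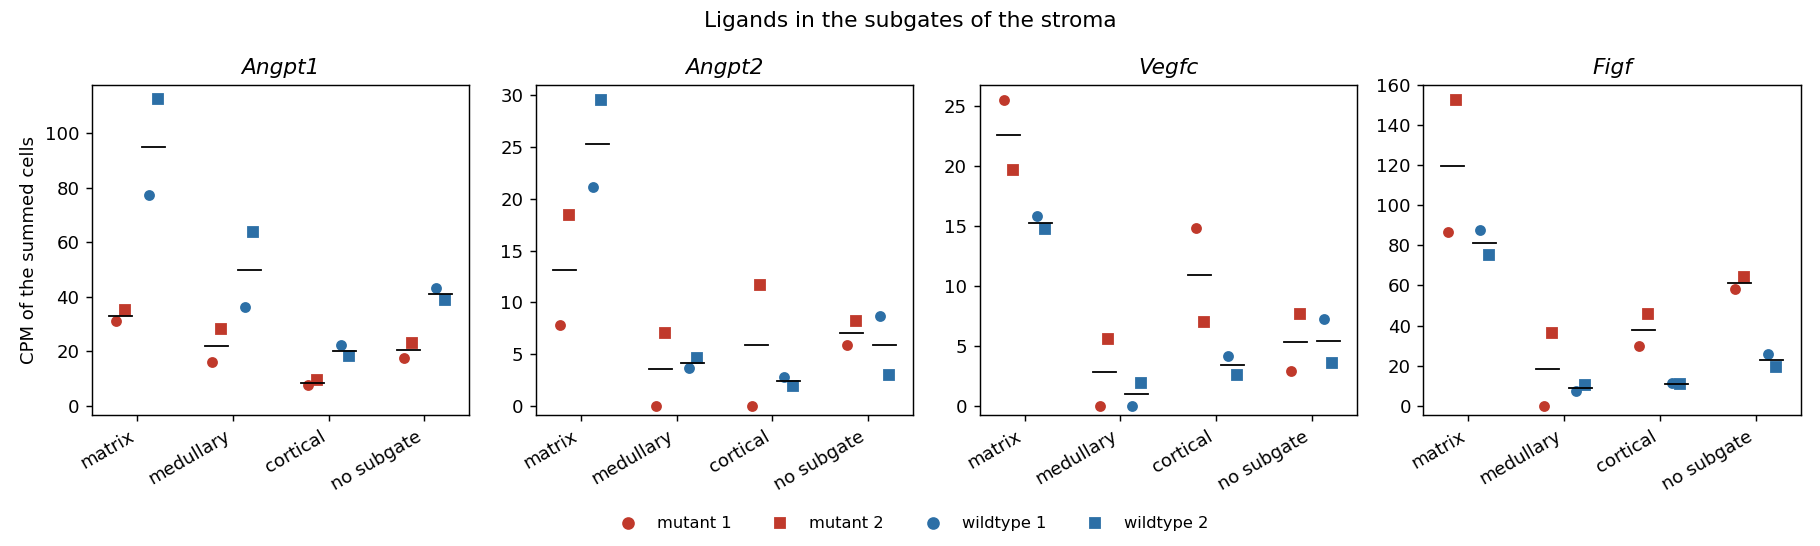
Level of Angpt1, Angpt2, Vegfc and Figf (y axis, CPM of the summed cells) in the matrix, medullary and cortical subgates of the stroma and in stroma of no subgate (x axis), with mutant libraries in red to the left of wildtype libraries in blue and black bars as means. Angpt1 lies lower in both mutant libraries in each of the 3 named subgates, while Vegfc in matrix cells lies higher in both.

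The mutant and wildtype libraries were first compared over all kept cells. No call was made among the 10 genes by edgeR, with p-values adjusted over 15777 genes, of which 1.32% were called (152 genes higher and 56 lower). An unadjusted edgeR p under 0.05 was found for 1500 of the 15777 genes and for 3 of the 10, and DESeq2 called none of the 10 either. The lymphatic ligand Vegfc stood at 12.5 and 10.5 CPM in the mutant and 3.64 and 3.88 CPM in the wildtype libraries, an edgeR log2 difference of 1.45 (SE 0.41, adjusted p = 0.0811). Flt4, its receptor, stood at 8.89 and 16.2 CPM in the mutant and 7.17 and 4.41 CPM in the wildtype libraries (1.05, SE 0.40, adjusted p = 0.293 by edgeR). Angpt2 stood at 5.93 and 8.27 CPM in the mutant and 3.53 and 3.04 CPM in the wildtype libraries (1.005, SE 0.44, adjusted p = 0.427 by edgeR). In these 3 genes the genotypes did not overlap, with the mutant libraries above. For Angpt2 this direction did not hold in matrix stroma, its highest stromal subgate. There both mutant libraries lay below both wildtype libraries, on few UMIs. Over the whole stroma gate Angpt2 differed by 0.34 (SE 0.45), with overlap.

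Vegfa also lay above in both mutant libraries, at 42.5 and 51.3 CPM against 37.2 and 29.2 CPM in the wildtype libraries, with a 95% interval of the log2 difference from -0.28 to 1.05. Angpt1 lay below, at 22.1 and 17.6 CPM in the mutant and 24.4 and 22.5 CPM in the wildtype libraries, with an interval from -1.10 to 0.34. The other 5 receptors overlapped between genotypes. Kdr was decided by mutant 2, which gave 100.2 CPM against 26.0 CPM in mutant 1: its difference of 0.88 (SE 0.62) was 1.499 without mutant 1 (adjusted p = 0.0324 by edgeR) and -0.33 without mutant 2 (adjusted p = 0.873). Mutant 2 also had the largest endothelium share. The median over the 10 genes was 0.68, against 0.01 over all genes.

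**Figure D4:**
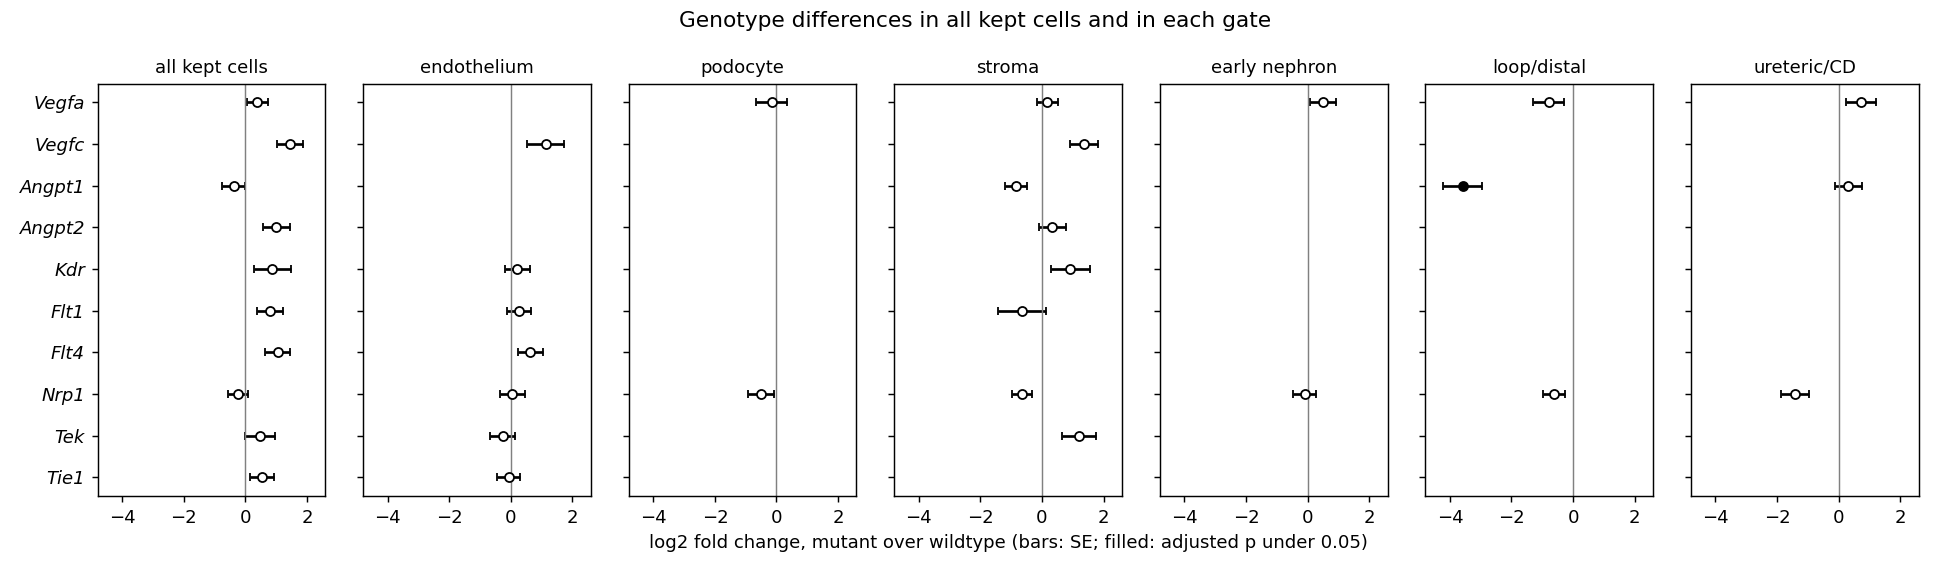
Log2 fold change of each gene, mutant over wildtype (x axis), over all kept cells and within each tested gate, with bars of 1 SE from edgeR; a gene is missing where its counts were too low for the fit, and a filled point marks an adjusted p under 0.05. Angpt1 in the loop and distal tubule gate is the single filled point.

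Within the endothelium gate, none of 7 fitted genes differed between genotypes by edgeR's test, which called 0.131% of 8402 genes. An unadjusted edgeR p under 0.05 was found for 396 of the 8402 genes and for none of the 7, and DESeq2 called none of the 7. The 95% intervals of the log2 differences were -0.61 to 1.03 for Kdr, -0.49 to 1.01 for Flt1, -0.79 to 0.64 for Tie1 and -1.05 to 0.52 for Tek. These widths leave room for a change of either sign. Vegfc had the largest difference, 1.13 (SE 0.59, adjusted p = 0.999 by edgeR), and Flt4 followed at 0.64 (SE 0.40). The median of the 7 was 0.21, against 0.02 over all genes.

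In podocytes, Vegfa differed by -0.15 (SE 0.50) with a 95% interval from -1.13 to 0.83, and Nrp1 by -0.49 (SE 0.42); edgeR called 0 of 2875 genes there (101 at an unadjusted p under 0.05, and 0 by DESeq2), a percentage of 0. The direction of Vegfa in podocytes turned with a single library, as 0.21 without mutant 1 and 0.38 without wildtype 1. The podocyte markers themselves were uneven, their 10 genes summing to 2507 and 5103 CPM in mutant and 4021 and 3299 CPM in wildtype podocytes. Markers of endothelium summed to 1034 and 430 CPM there in the mutant and 260 and 659 CPM in the wildtype libraries, with 7 and 2 of 10 at 0 in the mutant and 8 and 6 at 0 in the wildtype libraries; their part was not tested.

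In the stroma gate, none of 8 fitted genes passed edgeR's test, which called 0.408% of 12262 genes. An unadjusted edgeR p under 0.05 was found for 932 of the 12262 genes and for 3 of the 8, and DESeq2 called none of the 8. Vegfc was higher in both mutant libraries, with a log2 difference of 1.37 (SE 0.45, adjusted p = 0.275 by edgeR). Angpt1 was lower in both, with -0.85 (SE 0.35, adjusted p = 0.488 by edgeR). Tek, at 8.33 and 8.11 CPM in mutant and 4.86 and 2.51 CPM in wildtype stroma, had 1.20 (SE 0.54). The 10 endothelial markers summed to 61.8 and 72.9 CPM in mutant and to 38.9 and 82.0 CPM in wildtype stroma, with overlap and with at most 1 of them at 0 in any library. Nephron progenitor markers summed to 74.95 and 76.6 CPM in mutant and to 241 and 236 CPM in wildtype stroma, and the stroma's own markers to 5064 and 6092 CPM in mutant and to 4326 and 2969 CPM in wildtype stroma. Neither of these lists overlapped between genotypes or had a gene at 0, and their part in the Vegfc and Angpt1 differences was not tested. The median of the 8 was 0.26, against 0.01 over all genes.

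The largest difference was that of Angpt1 in the loop and distal tubule gate. There were 0 and 7 UMIs in 43 and 250 mutant cells, against 29 and 67 UMIs in 92 and 170 wildtype cells. The count of 0 in mutant 1 allows up to 14.3 CPM, which is below both wildtype libraries. It fell by 3.59 on the log2 scale (SE 0.63, adjusted p = 0.0421 by edgeR), 1 of 3 fitted genes in a comparison that called 0.0446% of 8962 genes and 0.0223% as lower; the others called were S100g, Hoxc9 and Hoxd11. The call was lost with DESeq2 (-3.74, adjusted p = 0.194), without the mitochondrial limit (-3.17, adjusted p = 0.111 by edgeR) and when cells were gated by the largest share of marker UMIs (-2.35, adjusted p = 0.441 by edgeR), and was kept when any library was left out. Vegfa had -0.78 (SE 0.50) and Nrp1 -0.63 (SE 0.36) in the same gate, and neither passed.

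At least 1 Angpt1 UMI was found in 0 and 2.40% of mutant and in 10.9% and 13.5% of wildtype cells of this gate. Thinned to 1000 UMIs the shares were 0 of 39 and 0.429% of 233 mutant cells and 3.49% of 86 and 3.01% of 166 wildtype cells, the 0 allowing up to 7.69%. In the immune gate the thinned shares were 0 and 3.77% in the mutant and 0 and 1.72% in the wildtype libraries. This range includes the thinned wildtype shares of the distal gate only through mutant 2. In each wildtype library the immune share was the lower one, but the 0 of 29 cells in wildtype 1 allows up to 10.3%. With so few cells, the thinned distal shares cannot be told from background. Unthinned, the immune gate gave 0 and 52.2 CPM in the mutant libraries (0 and 10 UMIs) and 0 and 14.1 CPM in the wildtype libraries (0 and 3 UMIs). The highest count of Angpt1 in a single cell of the distal gate was 0 and 2 UMIs in the mutant and 7 and 17 UMIs in the wildtype libraries.

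The markers of the wildtype cells with Angpt1 are described here after the values were seen, and all of them are themselves gating genes. Gata3, a transcription factor of the ureteric lineage and of the tubule segment that joins it, was detected in 70.0% of 10 and 78.3% of 23 such cells, against 17.1% and 12.2% of the other cells of the gate in the wildtype libraries. The distal marker Tmem52b was found in 90.0% and 87.0% of them, against 43.9% and 38.1% of the other cells, and Sostdc1 in 9 of 10 and 23 of 23, against 41 of 82 and 70.7%. Other genes of the distal list were found less often or about as often. Slc12a1, the salt transporter of the loop of Henle, was found in 0 of 10 and 8.70% of 23, against 26.8% and 32.0%, Irx1 in 0 of 10 and 8.70%, against 19.5% and 28.6%, and Papss2 in 10.0% and 8.70%, against 25.6% and 30.6%. Tfap2b was found in 10 of 10 and 87.0%, against 85.4% and 87.8%. Calb1, like Gata3 a gene of the ureteric list, was found in 5 of 10 and 47.8% of 23, against 7.32% and 8.84%. Of the 6 mutant cells with Angpt1, all in mutant 2, 66.7% had Gata3 and 16.7% had Calb1. Among the other cells of the gate in mutant 2, 7.79% had Gata3 and 1.23% had Calb1. These shares were not tested.

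Gata3 itself stood at 38.2 and 24.7 CPM in the mutant gate and at 114 and 78.5 CPM in the wildtype gate, and at 0 to 15.6 CPM in the immune gate. Cells with a Gata3 UMI made up 4.65% and 9.20% of the mutant gate and 22.8% and 21.2% of the wildtype gate, whose cells were deeper (medians of 3199 and 4300.5 UMIs in the mutant and 4617.5 and 5918 UMIs in the wildtype libraries). Thinned to 1000 UMIs, which left out 4 and 17 mutant and 6 and 4 wildtype cells, the shares were 2.56% and 2.58% in the mutant and 6.98% and 4.22% in the wildtype libraries, without overlap. The thinned immune gate had 0 cells with Gata3 in each library, which allows between 5.17% and 13.0%, so the thinned share of each library lies within what its immune count allows. At 2000 UMIs the shares were 3.03% and 5.42% in the mutant and 16.2% and 14.2% in the wildtype libraries, against 0 of 15 and 0 of 36 immune cells in the mutant and 5.26% and 2.70% of them in the wildtype libraries. At 500 UMIs they were 0 of 43 and 2.40% in the mutant and 4.35% and 2.94% in the wildtype libraries. This thinning was added after the values were seen. Within the unthinned cells with Gata3, Angpt1 stood at 0 CPM in the 2 cells of mutant 1 and 27.4 CPM in the 23 cells of mutant 2, against 130 and 171 CPM in the 21 and 36 cells of the wildtype libraries. In distal cells without Gata3 it stood at 0 and 2.52 CPM in the mutant and 15.3 and 6.05 CPM in the wildtype libraries. The 10 ureteric markers summed to 95.6 and 67.4 CPM in the mutant distal gate and to 285 and 200 CPM in the wildtype one, with 6 and 4 at 0 in the mutant and 3 and 1 at 0 in the wildtype libraries. Their part in the Angpt1 difference was not tested. When the distal and ureteric gates were joined, an alternative added after the data were seen, Angpt1 differed by -1.002 (SE 0.50, adjusted p = 0.999 by edgeR), where 0.0752% of 10639 genes were called.

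**Figure D5:**
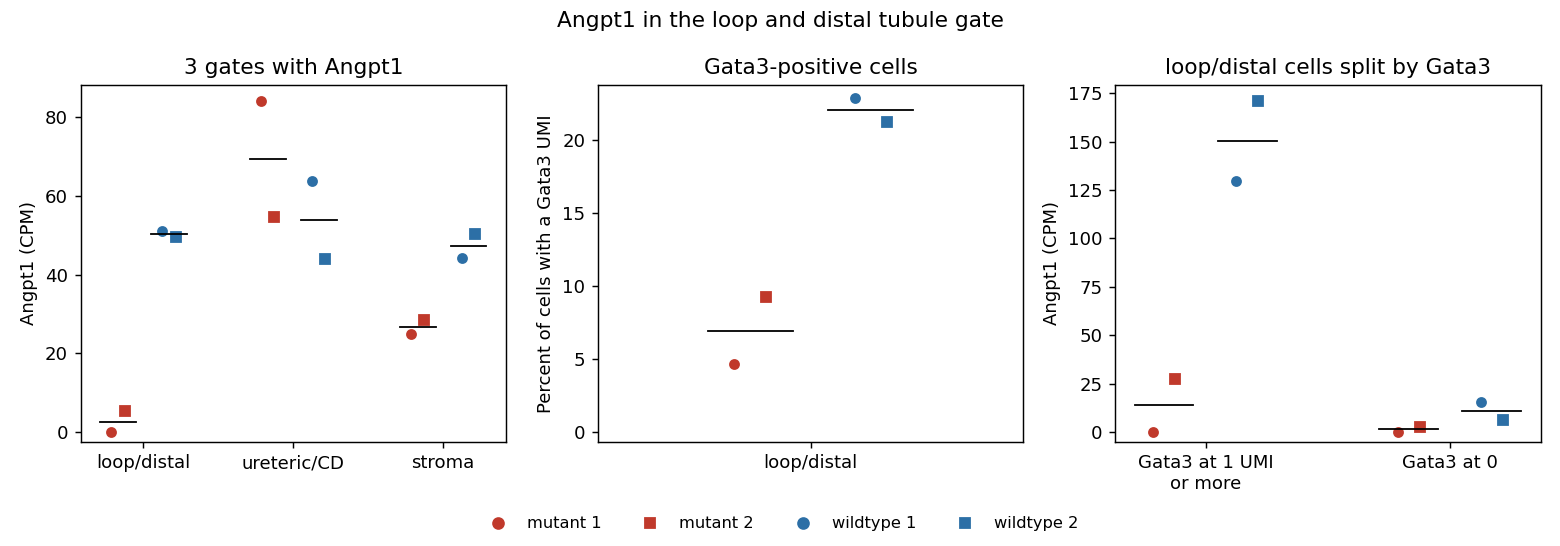
Angpt1 level in 3 gates (left, y axis in CPM), percent of loop and distal tubule cells with a Gata3 UMI, not thinned (middle) and Angpt1 level in that gate split by Gata3 (right, CPM), with mutant libraries in red to the left of wildtype libraries in blue and black bars as means. The wildtype signal lies at 130 and 171 CPM in the cells with Gata3, against 0 and 27.4 CPM in those of the mutant libraries.

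In the ureteric bud and collecting duct gate none of 3 fitted genes passed edgeR's test, which called 0.0737% of 8138 genes, and DESeq2 called none of the 3. An unadjusted edgeR p under 0.05 was found for 563 of the 8138 genes and for 1 of the 3. That gene was Nrp1, at 44.3 and 96.5 CPM in the mutant and 243 and 132 CPM in the wildtype libraries, a difference of -1.41 (SE 0.45, adjusted p = 0.520 by edgeR). Without wildtype 2 it was -1.78 (adjusted p = 0.0164 by edgeR). Angpt1 had 0.32 there, with a 95% interval from -0.56 to 1.19; the difference between this effect and that in the distal gate was not tested. In the early nephron gate, Vegfa (0.51, SE 0.44) and Nrp1 (-0.10, SE 0.37) were fitted and neither passed, with a percentage called of 0, where edgeR and DESeq2 each called 0 of 9930 genes and 416 had an unadjusted p under 0.05 by edgeR.

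Of 96 further genes of both pathways and of endothelium, in 5 lists, few differed between genotypes. Over all kept cells, 1 of 20 other ligands, receptors and partners was called, higher; its list had a median of 0.41, against 0.01 over all genes. This was Figf, which encodes VEGF-D, the other lymphatic ligand of FLT4. It stood at 36.9 and 49.4 CPM in the mutant and 9.15 and 6.79 CPM in the wildtype libraries (2.32, SE 0.38, adjusted p = 0.000510 by edgeR). In the stroma it stood at 70.8 and 107 CPM in the mutant and 34.5 and 24.3 CPM in the wildtype libraries. Both mutant libraries were above both wildtype libraries there, but in the matrix cells alone the genotypes overlapped, with 86.6 and 153 CPM in mutant and 87.9 and 74.99 CPM in wildtype cells. The stromal difference passed (1.60, SE 0.34, adjusted p = 0.0443 by edgeR) but did not without mutant 2 (adjusted p = 0.131) or wildtype 2 (0.0697), without the doublet step (0.0524) or the mitochondrial limit (0.0660), or with at least 3 markers per gate (0.0558).

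Of 17 other endothelial receptors and adhesion genes none was called over all cells by edgeR (median 0.80), and of 20 endothelial transcription factors 1 was (median 0.61), Klf2, a factor that responds to blood flow. It stood at 98.7 and 199.9 CPM in mutant and 40.8 and 45.8 CPM in wildtype endothelium, a difference of 1.81 (SE 0.40) whose adjusted p of 0.0566 by edgeR missed the threshold. Over all cells it rose by 2.31 (SE 0.41, adjusted p = 0.00176 by edgeR), and did not pass without mutant 2 (0.0549). In stroma it rose to 11.8 and 16.3 CPM in the mutant libraries, against 1.33 and 1.54 CPM in the wildtype libraries (3.22, SE 0.53, adjusted p = 0.00822 by edgeR). The wildtype levels there rest on few UMIs, and the difference did not pass without mutant 2. Emcn, a sialomucin of capillary and venous endothelium, was likewise called in stroma, at 46.5 and 69.8 CPM in the mutant and 18.6 and 12.7 CPM in the wildtype libraries (1.90, SE 0.37, adjusted p = 0.0195 by edgeR; 0.0684 with cells gated by marker UMIs).

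No gene of the tip cell and arterial list or the hypoxia list was called between genotypes over all cells, in endothelium or in stroma by edgeR. The smallest p over all cells in these lists were those of Gja5, an arterial connexin (1.70, SE 0.53, adjusted p = 0.135), and Ldha, a glycolytic target of hypoxia signalling (-0.999, SE 0.36, adjusted p = 0.253, edgeR). The hypoxia list, which holds Hif1a and response genes such as Ldha, had a median of -0.44 over all cells, -0.39 in stroma and 0.16 in endothelium. For Nrp2 the makeup of the endothelium gate matters, as it held 3 and 31 lymphatic cells in the mutant and 2 and 2 in the wildtype libraries. In blood endothelium alone Nrp2 overlapped between genotypes, by the values given above, and the part of the lymphatic cells was not tested. In the whole gate Nrp2 stood at 155 and 277 CPM in the mutant and 90.6 and 49.2 CPM in the wildtype libraries (1.68, SE 0.39, adjusted p = 0.0853 by edgeR). Without mutant 1 the call was made (adjusted p = 0.00491 by edgeR).

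Across gates the lists differed. In endothelium, where 17.8% of all genes were higher and 22.3% lower, all 17 other endothelial receptors and adhesion genes were higher (Cd34 by 6.45, Mmrn2 by 7.36), 17 of 20 tip cell and arterial genes were (Esm1 by 7.83, Dll4 by 6.76), and 16 of 20 transcription factors were, with 3 lower (Sox17 higher by 7.49, Fli1 by 3.32). The hypoxia list had 4 of 17 higher and 1 lower, with a median of 0.11 against -0.06 over all genes. Of 18 fitted ligands, receptors and partners (median -0.68), 6 were higher and 9 were lower. Among the higher ones were the semaphorin receptor Plxnd1 (4.08), the co-receptor Nrp2 (3.62) and the phosphatase Ptprb, which acts on TEK (6.88). In stroma, where 18.6% of all genes were higher and 19.3% lower, 8 of 20 such partners were higher, among them Figf (5.29), the guidance ligand Sema3a (4.504) and Ccbe1 (3.57), which is needed to activate VEGF-C, and 3 were lower. In podocytes 1 of 18 was higher, Sema3g (3.19), and 5 were lower, beside 9% higher and 16.1% lower over all genes. Values are log2 differences of edgeR's test of a gate over the others.

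The patterns most like those of 6 of the genes were ranked by Pearson's r of log2 CPM over 36 sums of a gate and library, among 6230 genes. Left out of the ranking were the 10 genes themselves, all markers of gates and subgates, and predicted genes. Haemoglobin, mitochondrial, ribosomal protein, Xist and Y chromosome genes were left out too, so nearness to any of these was not ranked. The sums share libraries and depth, and r is given as a description. Kdr was nearest to Rasgrp3 (0.97), Gimap4 (0.94), Aplnr (0.94), Tmem88 (0.93) and Rasip1 (0.92). Flt4 shared 4 of these, Aplnr (0.90), Rasgrp3 (0.90), Gimap4 (0.89) and Rasip1 (0.89), with Gimap6 (0.87) as the fifth. Vegfa was nearest to Ackr3 (0.85), Fam184a (0.85), Gpc1 (0.84), Sdc2 (0.84) and Med27 (0.84). Vegfc was nearest to Plk2 (0.82), Prkcdbp (0.81), Igfbp3 (0.80), Emp1 (0.77) and Gpr116 (0.75). The angiopoietins had weaker matches, Angpt1 with Tbx3 (0.70), S100a6 (0.69), Plac8 (0.68), Lmo4 (0.64) and B4galt6 (0.63), and Angpt2 with Gucy1a3 (0.78), Bgn (0.77), Ccdc80 (0.76), Fhl2 (0.76) and Pcdh18 (0.74).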

How the data were processed

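Per the file headers, the authors deposited counts per gene and cell barcode. Bowtie2 2.2.7 and build mm10 are listed in the submitters' processing notes. The annotation, strand handling and UMI collapse are not given in the sources used here. Barcodes with at least 500 genes and at most 10% mitochondrial counts were kept, without the 5% per library with the highest Scrublet score (620; the tool's own threshold marked 10). A cell took the gate whose list had most distinct genes detected (at least 2, and more than any other list); 118 of 120 list genes were in the files. Counts were summed per library and gate and tested with edgeR 4.0.16 (TMM, filterByExpr, robust quasi-likelihood test, Benjamini-Hochberg, threshold 0.05). Levels are CPM without TMM. The 95% intervals of log2 differences come from the SE by a normal approximation, and can be narrower than edgeR's test implies. Floors are 3 counts and cover counting error only. The members and lists were chosen with earlier results of these data known. Named list genes are those past the test, at most 4 by smallest p, or else the 1 with the smallest p; likeness used log2(CPM + 10) and a mean of at least 20 CPM. Alternatives were DESeq2 1.42.0, no filter, replicate blocks, each library left out, 1000 genes per barcode, other cell filters, gates and thinning depths. Positions are from GENCODE vM21. Tests were checked on simulated counts with 4-fold changes and 1 dispersion shared by all genes, so smaller changes were not covered. Of 200 changed genes, 119 were recovered in endothelium and 127 in loop and distal tubule, with 2 and 11 false calls. Python 3.11.15, scanpy 1.11.5, R 4.3.3 and limma 3.58.1 were used.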

Additional observations from a re-analysis of the deposited data

Results flagged for a closer look

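Vegfa differed between genotypes in opposite directions in neighbouring epithelia, with no overlap of libraries in any of these gates. In the early nephron gate the log2 fold change was 0.51 (44.6 and 39.8 CPM in the mutant and 25.4 and 28.8 CPM in the wildtype libraries), in the ureteric bud and collecting duct gate 0.72 (44.3 and 60.02 CPM in the mutant and 20.5 and 39.8 CPM in the wildtype libraries), and in the loop and distal tubule gate -0.78 (14.3 and 21.7 CPM in the mutant and 28.2 and 35.6 CPM in the wildtype libraries). In the early nephron gate the 10 podocyte markers, from the gate highest in Vegfa, summed to 204 and 202 CPM in the mutant and to 102 and 96.7 CPM in the wildtype libraries (2 and 0 of them at 0 in the mutant and 1 and 1 in the wildtype libraries), the stromal markers to 524 and 297 CPM in the mutant and to 244 and 223 CPM in the wildtype libraries, and the endothelial markers to 216 and 107 CPM in the mutant and to 63.5 and 105 CPM in the wildtype libraries; their part in the Vegfa difference was not tested. The difference between these effects was not tested, and none of the effects passed edgeR's test by itself. The values of mutant 1 rest on 12, 10 and 3 UMIs.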

How the results depend on the processing

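Reversed were Kdr over all cells (-0.33 to 1.499 with a library left out), Vegfa in podocytes (-0.96 to 0.38 with a library left out, 0.15 with cells gated by the share of marker UMIs) and the endothelium share (log2 -0.019 to 0.57 with a library left out). Of the 10 genes, those called over all cells numbered 0 to 1 with a library left out (Kdr without mutant 1), in the ureteric gate 0 to 1 (Nrp1 without wildtype 2) and in the podocyte lineage test 2 to 8 (2 without mutant 2). In the distal gate 0 were called with DESeq2, the crossed replicate block, no mitochondrial limit or gating by UMI share, and in the ureteric gate 1 with the crossed block. The cause was not tested.

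The podocyte share passed with at least 3 markers (1.61), with the replicate block (1.67) and without wildtype 1 (range 1.03 to 2.30); the stroma share with 1000 genes per barcode (0.65) and without erythroid and immune cells in the total (0.70); the distal share with 1000 genes (0.50); and the ureteric share without mutant 1 (range -2.06 to -0.34). The share of distal cells with Angpt1 differed by -3.04 percentage points at 1000 UMIs, -0.98 at 500 and -5.87 at 2000.

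The labels do not say whether a shared number pairs libraries, and the deviations of same-numbered libraries correlated at -0.16 over 6681 genes, which does not settle it. The replicate block changed no call among the 10 genes. The crossed block, added after seeing the data, called 0 of 12262 genes in stroma, where 50 were called without it. The stromal calls of Figf, Klf2 and Emcn were thus lost under the crossed block. Calls over all genes, 208 over all cells, ranged from 157 to 223 under other settings and from 269 to 395 with a library left out. They were 11 in endothelium (7 to 31, and 23 to 66), 4 in the distal gate (1 to 22, and 23 to 38), 50 in stroma (0 to 171, and 118 to 231), 6 in the ureteric gate (5 to 120, and 24 to 134), 0 in podocytes (0 to 4, and 4 to 26) and 0 in early nephron (0 to 5, and 16 to 42). With a library left out, the lone library of its genotype is assumed to vary like the others. Few cells in mutant 1 limit every value of its podocyte, distal and ureteric gates.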
